A study of Mus musculus with 2 samples.

Results

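The clustered protocadherins are cell surface adhesion genes that lie in 3 neighbouring clusters on mouse chromosome 18, called alpha, beta and gamma. Their rows were chosen by gene symbol, although earlier results of these data were known when the clusters were chosen. The deposited table listed 18510 genes, and 54 were members, with 12 in the alpha, 21 in the beta and 21 in the gamma cluster. The table came from RNA sequencing of neural stem cells taken from the brain of CD-1 mouse embryos at day 12 (E12). All cells were grown in proliferation medium for 5 days and infected with lentivirus, which carried a control plasmid in one group and an H3.3 knockdown plasmid in the other. The targeted H3.3 is a variant of histone H3 that enters chromatin outside of DNA replication. Each group held 1 library, so no value below has a replicate error and no p-value was computed for the condition. The sources used here give neither the knockdown sequence nor the share of infected cells nor the number of pooled embryos.

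In the alpha and gamma clusters each isoform begins with its own large variable exon, which encodes the extracellular cadherin repeats, the membrane span and a short cytoplasmic stretch. This exon is spliced to small constant exons that all isoforms of that cluster share. Beta genes are mostly single exons and have no shared constant part. Single neurons choose a few of the alternate isoforms at random through promoters bound by CTCF and cohesin, whereas the C type isoforms at the ends of the alpha and gamma clusters are chosen by other rules. The proteins form recognition units on the cell surface that bind only matching units, which in the mouse is known for its part in dendrite self-avoidance, axon tiling and neuron survival.

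On GRCm38 the analysed alpha genes span positions 36930184 to 37187661 of chromosome 18, the beta genes 37294812 to 37524479 and the gamma genes 37661793 to 37841873, all on the plus strand. The bases of the constant exons belong to every isoform of a cluster, so reads there cannot be given to a single gene, and counts of alpha and gamma isoforms are less certain than those of beta genes. The lowest count of an alpha isoform was 4 in the control library and 5 after knockdown, and the lowest of a gamma isoform was 13 and 16. Reads of shared exons counted alike for every isoform could therefore add no more than these counts to a row. Levels are given below in CPM (counts scaled to the total of the library) and, between genes, in CPM per kb of exon bases that no other annotated gene shares. Between 1886 and 3028 bases were unshared in alpha genes, 1107 to 8695 in beta genes and 1256 to 4614 in gamma genes. Near-identical stretches remain even there. In the median alpha gene 14.7% of all 50-base words of the first exon also occurred in the first exon of another clustered protocadherin, against 4.82% in the median beta and 0.860% in the median gamma gene. The values reached 23.4% in Pcdha7, 12% in Pcdhb12 and 16.8% in Pcdhgb1, and no such word was found in the C type isoforms.

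The control library held 9184779 counts and the knockdown library 8702855. Both genes for the H3.3 protein were lower in the knockdown library, H3f3b at 821 and 447 CPM, with a ratio of 0.544 (0.523 to 0.566), and H3f3a at 209 and 135 CPM, with 0.646 (0.601 to 0.695). All 16 neural stem cell markers of a list were measured at a mean of at least 1 CPM, with 3 lower and none higher by the size rule explained further on. The 20 neuron markers summed to 7465 CPM and, after knockdown, 10043 CPM, with 5 higher and none lower. The 18 cell cycle genes summed to 2548 and 1235 CPM, with 11 lower. Oligodendrocyte lineage markers summed to 2908 and 2316 CPM, with 8 of 14 lower and 1 higher, and astrocyte markers to 1432 and 1703 CPM, with 1 of 8 lower. Markers of mesenchyme, endothelium and microglia or macrophages summed to 70.2, 7.08 and 3.59 CPM in the control and to 58.1, 13.3 and 5.75 CPM in the knockdown library. Of the mesenchyme markers the collagen genes Col1a1, Col1a2 and Col3a1 were higher, with ratios of 2.09, 2.65 and 3.68, and Pdgfrb and Prrx1 lower. Flt1 of the endothelium (0 and 20 counts) and C1qa of the microglia (5 and 14) were higher. Both were under 1 CPM in the control and reached the mean of 1 CPM through the knockdown library, so these calls carry no weight. Over all genes tested, 3.82% were higher and 2.54% lower by the size rule. Erythroid markers held 1 and 3 counts. In bulk RNA, fewer cells of a type and less RNA per cell cannot be told apart.

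The alpha cluster stood apart from the beta and gamma clusters in the ratio of its summed counts. The alpha genes together had 582 counts in the control library and 914 after knockdown, or 63.4 and 105 CPM, which is 1.66-fold higher (interval 1.49 to 1.84). The beta genes had 1975 and 1890 counts, or 215 and 217 CPM, a ratio of 1.01 (0.948 to 1.08). The gamma genes had 3235 and 2906 counts, or 352 and 334 CPM, a ratio of 0.948 (0.901 to 0.997). Intervals throughout are exact 95% intervals of the counts. They cover counting error only, because reads amplified by PCR and lacking molecular identifiers may repeat a molecule, and because the spread between cultures was not measured.

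Set against each other, the ratio of the alpha sum exceeded that of the beta sum 1.64 times (1.45 to 1.86) and that of the gamma sum 1.75 times (1.56 to 1.97). The beta and gamma sums differed by less than their counting error, at 1.07 times (0.982 to 1.16). The alpha cluster accordingly held 10.05% of all clustered protocadherin counts in the control (exact binomial interval 9.29 to 10.9) and 16.01% after knockdown (15.1 to 16.98). The gamma cluster went from 55.9% (54.6 to 57.1) to 50.9% (49.6 to 52.2), and the beta cluster from 34.1% (32.9 to 35.3) to 33.1% (31.9 to 34.3). The interval of the gamma sum excluded 1 with the library totals as scale, but included it with TMM scaling, at a log2 ratio of -0.06 (-0.13 to 0.01).

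**Figure D1:**
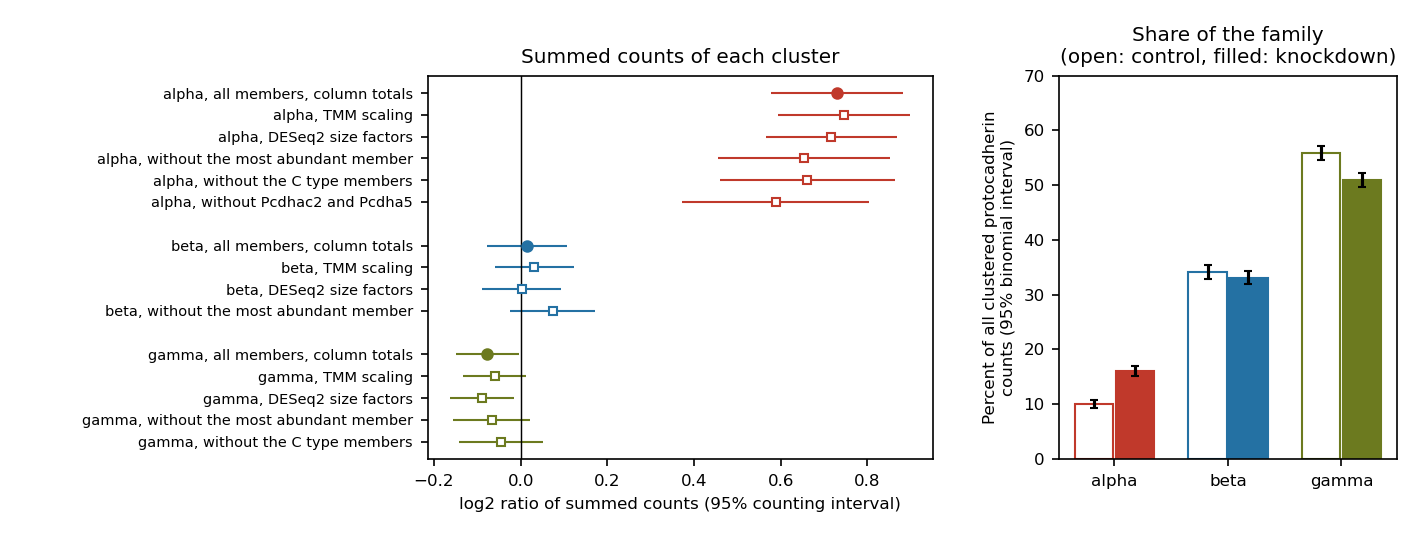
The left panel plots the log2 ratio of the summed counts of each cluster, knockdown over control, with its 95% counting interval, as reported (filled circles) and under other scalings or without some members (open squares). The right panel gives each cluster's percent of all clustered protocadherin counts in the control (open bars) and the knockdown library (filled bars) with exact binomial intervals. All alpha values lie between 0.59 and 0.75, while beta and gamma values lie near 0.

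Single genes were read with a size rule, made of 3 demands: both libraries average 1 CPM or more, the levels differ at least 2-fold, and the counting interval does not reach 1. A gene past the rule is said to have risen or fallen. Of the 54 members 50 reached the mean of 1 CPM. By the rule 1 of them rose, Pcdha5, and none fell, where 3.82% of all 13989 genes tested rose and 2.54% fell. The share among members, 1 of 50, was thus no larger than that of all genes. From the same libraries, the authors' deposited table marks 1081 of 18510 genes as differential, and among the 54 members only Pcdha5. Log2 ratios, knockdown over control with 0.5 count added, had a median of 0.60 in the 9 tested alpha genes, 0.03 in the 20 tested beta genes and -0.09 in the 21 gamma genes, beside -0.03 over all genes tested.

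All 9 tested alpha isoforms had a log2 ratio above 0, as had 47.1% of all genes tested, and 5 of the 9 had a counting interval wholly above 1, against 22.9% of all genes. A ratio of at least 1.5 was reached by 5 of 9, against 11.4% of all genes. These isoforms come from neighbouring promoters and share their constant exons and libraries, so they are not independent of each other. Neuron markers were also higher in the knockdown library, 16 of 20 with a log2 ratio above 0 and a median of 0.72, and their part in the alpha values was not tested. The other 3 alpha isoforms fell short of 1 CPM and had 4 and 9 counts (Pcdha1), 4 and 5 (Pcdha8) and 8 and 9 (Pcdhac1), control before knockdown. Their counts are too few to give a direction, although each ratio was above 1.

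**Figure D2:**
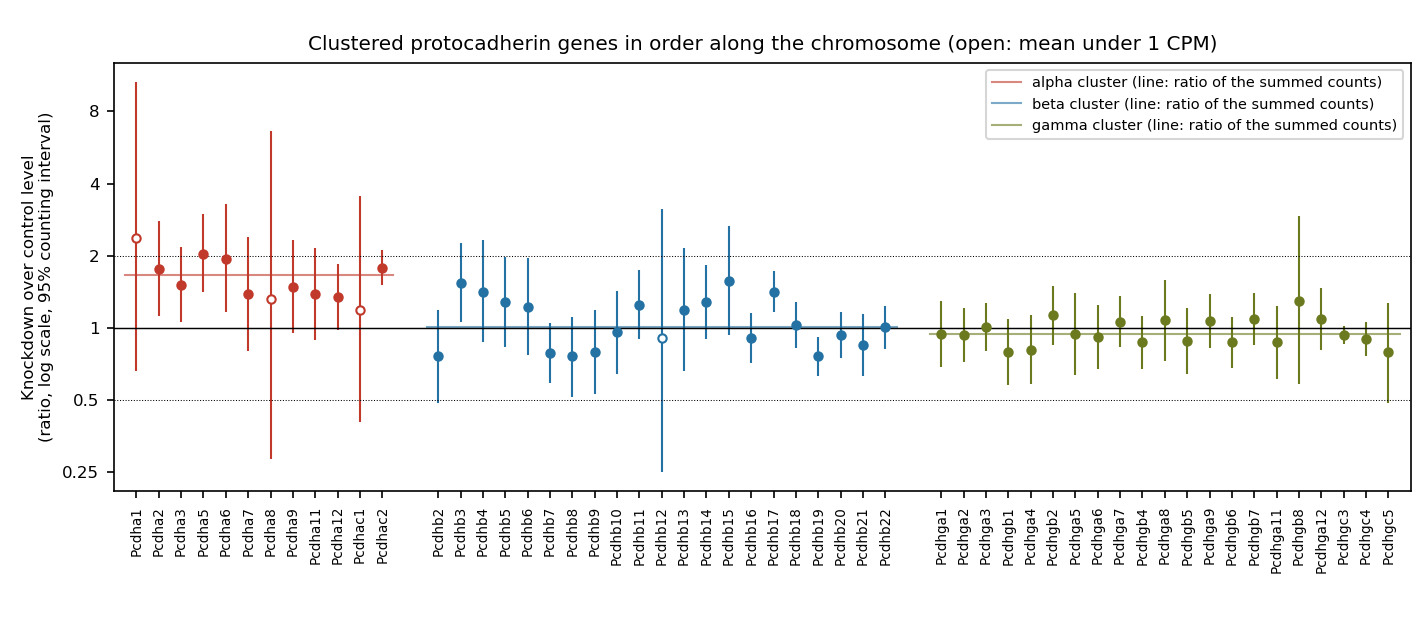
Each point is a clustered protocadherin gene, in order along the chromosome, with its level in the knockdown over the control library on a log scale and its 95% counting interval. Open points have a mean under 1 CPM, horizontal coloured lines mark the ratio of the summed counts of each cluster, and dotted lines mark 2-fold differences. All 9 filled alpha points lie above 1, whereas 11 of 20 filled beta and 8 of 21 gamma points do, beside 47.1% of all genes tested with a log2 ratio above 0. The 3 open alpha points also lie above 1, but from too few counts to give a direction.

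Pcdhac2, the C type isoform at the 3' end of the alpha cluster, carried the largest number of alpha counts. In the mouse it is known as the isoform that serotonergic neurons rely on for the tiling of their axons. It had 233 counts in the control library and 394 after knockdown, or 8.38 and 14.95 CPM per unshared kb, the highest level of the cluster in both. The ratio was 1.78 (1.51 to 2.11), short of the 2-fold limit. Pcdhac2 made up 40.0% of alpha counts in the control (36.0 to 44.1) and 43.1% in the knockdown library (39.9 to 46.4), so its share differed by less than counting error. The alpha sum without Pcdhac2 was still 1.57-fold higher (1.37 to 1.81). Of 6 markers of serotonergic neurons 4 had a row, and Fev and Tph2 had none. The 4 summed to 14.6 and 11.8 CPM, of which Slc18a2 alone gave 10.6 and 6.78 CPM. The serotonin transporter Slc6a4 had 3 and 4 counts, and 3 other markers reached 1 CPM. Of these Slc18a2, the vesicle transporter of all monoamines, had 97 and 59 counts, a ratio of 0.642 (0.456 to 0.896), and Maob, which encodes a monoamine oxidase, 24 and 12. Gata3, a transcription factor with roles in other lineages too, rose from 10 to 28 counts.

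Among the alternate alpha isoforms, which neurons choose at random, Pcdha5 had 45 counts in the control library and 87 after knockdown, or 4.90 and 9.997 CPM. That is a 2.04-fold rise (1.41 to 2.99), just past the limit, and Pcdha6, the next below it, stood at 1.94 (1.17 to 3.298) from 25 and 46 counts. The call of Pcdha5 was lost with 5 counts added to each library and after correction for transcript length and GC content, where its log2 ratio was 0.96 in both cases. Pcdha2 had 33 and 55 counts with a ratio of 1.76 (1.12 to 2.80), and Pcdha3 had 55 and 79 counts with 1.52 (1.06 to 2.18). These 4 and Pcdhac2 are the alpha genes whose interval lay above 1.

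The remaining tested alternates had intervals that included 1. Pcdha12 had the second highest level of the cluster, at 4.09 and 5.50 CPM per unshared kb from 73 and 93 counts, and the lowest tested ratio, 1.34 (0.979 to 1.85). Pcdha7 had 26 and 34 counts with a ratio of 1.38 (0.804 to 2.40), Pcdha9 37 and 52, and the row that GENCODE names Pcdha11 39 and 51. The deposited annotation describes that last row (ENSMUSG00000007440) as protocadherin alpha 10, so its isoform number is uncertain. GENCODE also gives the symbol Pcdha11 to another gene ID, which has no row here. The 10 alternates together had 341 and 511 counts, a ratio of 1.58 (1.38 to 1.82), close to the 1.76 (1.501 to 2.08) of the 2 C type isoforms. Those 2 had 241 and 403 counts, of which Pcdhac2 alone gave 233 and 394, so their joint ratio is mostly that of Pcdhac2.

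Alpha isoforms did not differ from each other beyond counting error. Each was set against the sum of the other alpha genes, and all 12 intervals of that quotient included 1, from 0.714 (0.243 to 2.14) for Pcdhac1 to 1.44 (0.399 to 6.41) for Pcdha1. At a median of 35 control counts per gene the interval of a single ratio runs from about 0.641 to 1.58 times its value, so differences between isoforms under that size were not detectable at this depth. Without Pcdhac2 and Pcdha5 the alpha sum had a ratio of 1.503 (1.295 to 1.75). The order of levels per unshared kb was much the same in both libraries, with a Spearman correlation of 0.91 over the 12 isoforms, which share libraries and sequence. The lowest levels belonged to Pcdha8 (0.176 and 0.232 CPM per unshared kb), Pcdha1 (0.175 and 0.415) and Pcdhac1 (0.340 and 0.404).

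**Figure D3:**
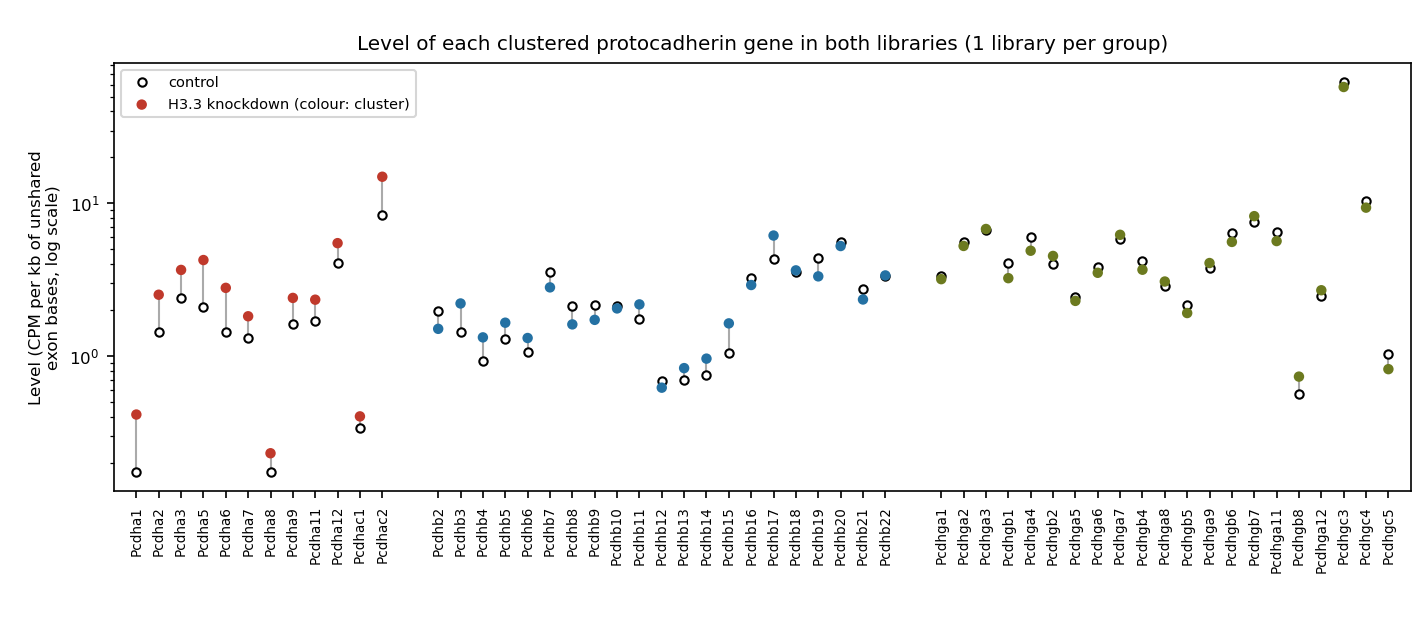
The plot gives the level of each gene in CPM per kb of unshared exon bases, on a log scale, in the control (open circles) and the knockdown library (filled, coloured by cluster), joined by a line. Pcdhgc3 stands highest at about 60 in both libraries, and in the alpha cluster every filled point lies above its open point. The points of Pcdha1, Pcdha8 and Pcdhac1 rest on too few counts to give a direction.

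Beta genes went both ways. Of 20 tested genes 11 had a log2 ratio above 0 and 9 below, beside 47.1% of all genes tested above 0. None passed the size rule, and the ratios ran from -0.39 to 0.64 on the log2 scale. Only Pcdhb3 and Pcdhb17 had an interval above 1 and only Pcdhb19 one below 1, against 22.9% and 27.0% of all genes tested. These shares depend on depth. A mean of at least 10 CPM was reached by 8 of the 20 beta genes, against 10279 of the 13989 genes tested. Pcdhb17 had 186 counts in the control library and 250 after knockdown, a ratio of 1.42 (1.17 to 1.72). Pcdhb19, which lies beyond Pcdhb18 in the same row of genes, had 287 and 207 counts, a ratio of 0.761 (0.633 to 0.913). The pair crossed in rank, since Pcdhb19 held the largest share of beta counts in the control, 14.5% (13.01 to 16.2), and Pcdhb17 in the knockdown library, 13.2% (11.7 to 14.8).

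Set against the sum of the other beta genes, Pcdhb17 was 1.47 times (1.19 to 1.80) and Pcdhb3 1.55 times (1.06 to 2.28) above them, while Pcdhb19 was at 0.723 (0.594 to 0.879). The other 18 intervals included 1. Pcdhb3 had 50 and 73 counts. Pcdhb15 had the highest tested ratio, 1.56 (0.936 to 2.65), from 27 and 40 counts, and Pcdhb8 a low one, 0.760 (0.516 to 1.11), from 68 and 49 counts. Pcdhb12, with 7 and 6 counts, was under the mean of 1 CPM.

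Beta ratios were also read in order along the cluster. From Pcdhb3 to Pcdhb6 they were 1.23 to 1.54, from Pcdhb7 to Pcdhb10 0.760 to 0.961, and in the 4 tested genes from Pcdhb11 to Pcdhb15 1.19 to 1.56. From Pcdhb16 to Pcdhb22 log2 ratios above and below 0 were mixed. These stretches were chosen after values were seen, and of the 12 genes up to Pcdhb15 named here only Pcdhb3 had an interval that did not include 1. Over the whole cluster the log2 ratio had a Spearman correlation of -0.13 with gene order (20 genes).

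Levels of beta genes were uneven along the cluster. The 7 genes from Pcdhb16 to Pcdhb22 at the 3' end had a median of 3.59 CPM per unshared kb (range 2.56 to 5.45), averaged over both libraries, and the 14 from Pcdhb2 to Pcdhb15 a median of 1.61 (0.656 to 3.199). Pcdhb20 was highest, at 5.63 CPM per unshared kb in the control library and 5.26 after knockdown from 184 and 163 counts with a ratio of 0.935 (0.753 to 1.16). Pcdhb17 had 4.35 and 6.16, Pcdhb19 4.38 and 3.33, and Pcdhb18 3.54 and 3.65 CPM per unshared kb. Pcdhb18 had 164 and 160 counts and a ratio of 1.03 (0.823 to 1.29). The summed ratio of the 3' genes was 0.978 (0.903 to 1.06) and that of the others 1.07 (0.960 to 1.19), so both groups were near 1. The order of levels was similar in both libraries (Spearman 0.92 over 21 genes).

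The gamma cluster gave most of the counts. Of 21 genes 8 had a log2 ratio above 0 and 13 below, beside 47.1% of all genes tested above 0. None passed the rule, and none had an interval that excluded 1. Of all genes, 22.9% had an interval above 1 and 27.0% one below. All gamma ratios lay between -0.33 and 0.37 on the log2 scale. Pcdhgb8, which RefSeq lists as a transcribed pseudogene, had the highest ratio, 1.30 (0.586 to 2.94), from only 13 and 16 counts. Pcdhgb2 followed with 102 and 109 counts and a ratio of 1.13 (0.853 to 1.49), and Pcdhgb1 was low with 98 and 74 counts and 0.797 (0.581 to 1.09). No gamma isoform differed from the rest of its cluster beyond counting error.

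By isoform type, the 11 gamma A genes summed to 1101 and 1026 counts, a ratio of 0.983 (0.902 to 1.07). The 7 gamma B genes summed to 722 and 647 counts, a ratio of 0.946 (0.849 to 1.05). The 3 C type genes had 1412 and 1233 counts, a ratio of 0.922 (0.853 to 0.995). The types thus had overlapping intervals. The C type interval ended closer to 1 than the shift that TMM scaling makes, 0.02 on the log2 scale, so that its side of 1 depends on the scaling. The mean level of the A type had a median of 3.93 CPM per unshared kb (range 2.37 to 6.77) and that of the B type 3.95 (0.651 to 7.92). Pcdhgb8 was lowest, with Pcdhgb7 (7.58 and 8.26) and Pcdhga3 (6.74 and 6.80) at the top. Pcdhgb7 had 1823 unshared bases, fewer than the 2594 of its first exon, and Pcdhga3 2601, as many as its first exon holds. The order of these genes therefore depends on how reads of shared bases were counted. Pcdhgb7 had 127 and 131 counts, a ratio of 1.09 (0.846 to 1.40), and Pcdhga3 161 and 154, a ratio of 1.01 (0.804 to 1.27).

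The C type isoforms of the gamma cluster were far apart in level. Pcdhgc3, which in mouse cortical neurons promotes dendrite branching and can restrain Wnt signalling through Axin1, was the most abundant clustered protocadherin. It had 1035 counts in the control library and 916 after knockdown, or 61.9 and 57.8 CPM per unshared kb, a ratio of 0.934 (0.854 to 1.02). Its unshared bases were 1821, fewer than the 3380 of its first exon, so its level per unshared kb depends on how reads of shared bases were counted. Pcdhgc3 alone held 32.0% of gamma counts in the control (30.4 to 33.6) and 31.5% in the knockdown library (29.8 to 33.2). Pcdhgc4, the isoform needed for neuron survival in the mouse, had 333 and 284 counts, or 10.4 and 9.39 CPM per unshared kb, a ratio of 0.900 (0.766 to 1.06). Pcdhgc5, which binds GABA-A receptors, had 44 and 33 counts, or 1.04 and 0.823 CPM per unshared kb, and the lowest ratio of the cluster, 0.792 (0.488 to 1.27). The ratios of all 3 were below 1, and the interval of Pcdhac2 lay above each of theirs. That of Pcdhac1, the other C type isoform of the alpha cluster, overlapped them, at a ratio of 1.19 (0.407 to 3.54).

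Genes around and between the clusters were compared to see whether the whole region moved. Of 38 other genes within 500 kb, 24 were tested and 9 of them had a log2 ratio above 0, beside 47.1% of all genes tested. None of the 24 passed the size rule, by which 3.82% of all genes rose and 2.54% fell. The median of the 24 was -0.08. The 12 tested genes on the side of the alpha cluster had a median of -0.15, and none exceeded 0.04. Inside the alpha cluster the antisense transcript Gm10544 had 22 and 19 counts, and inside the gamma cluster BC037039, an antisense transcript that overlaps Pcdhgc3, had 21 and 19. Taf7, a subunit of the general transcription factor TFIID that lies between the beta and gamma clusters, had 274 and 329 counts, a ratio of 1.27 (1.08 to 1.49). The noncoding 3222401L13Rik next to it had 48 and 43.

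Beyond the gamma cluster, Diaph1 had 561 and 438 counts, a ratio of 0.824 (0.726 to 0.935), and the histone deacetylase gene Hdac3 988 and 947. Rell2, named after its value was seen, had the highest ratio among the 24 tested neighbours, 1.79 (1.33 to 2.41), from 75 and 127 counts. The antisense transcript Gm26672 in the gamma cluster, also named after its value was seen, had 1 and 9 counts, a ratio of 9.498 (1.32 to 416), and its mean was under 1 CPM. Also named after their values were seen are Slc35a4 (684 and 420 counts) and Wdr55 (167 and 100) before the alpha cluster and Rnf14 (1514 and 2125) beyond the gamma cluster. Over the 339 tested genes of chromosome 18 that are no members the median log2 ratio was -0.02. The sources used here do not say whether counting used strand, so reads of sense and antisense genes cannot be told apart.

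**Figure D4:**
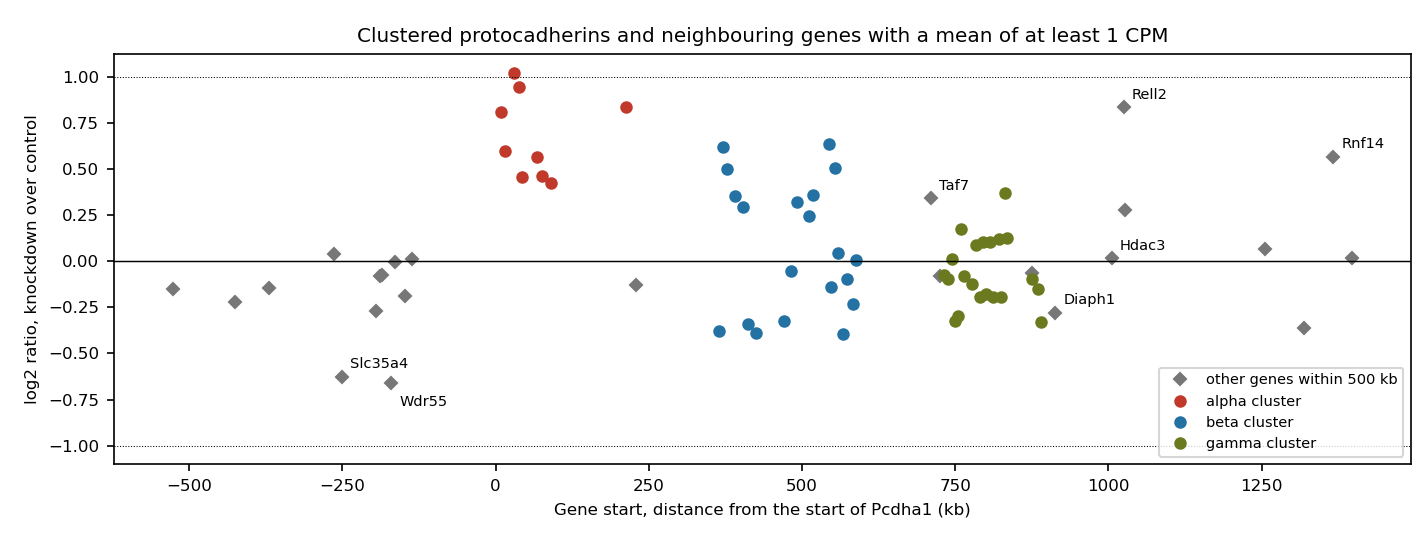
The log2 ratio of each tested gene, knockdown over control, is plotted against the distance of its start from the start of Pcdha1 in kb, with the clusters in colour and other genes within 500 kb as grey diamonds. The alpha genes lie between 0.42 and 1.02, above the 12 genes before them, which do not exceed 0.04, and above the gamma genes.

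Genes known to act on the clusters were taken from a list of 25 chromatin and loop factors. All 25 were tested, 6 had a log2 ratio above 0, beside 47.1% of all genes tested, and the median was -0.21. By the size rule 1 fell and none rose, beside 2.54% and 3.82% of all genes. The gene that fell was Dnmt1, the maintenance DNA methyltransferase, from 311 to 133 CPM, a ratio of 0.428 (0.400 to 0.459). Dnmt1 is also a gene of dividing cells, and the cell cycle list was lower as given above, but a link between these values was not tested. Dnmt3b, which in the mouse methylates promoters of alternate isoforms, had 30 and 18 counts with a ratio of 0.633 (0.332 to 1.17).

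The remaining factors had smaller differences. Ctcf, which binds the isoform promoters and enhancers, went from 189 to 135 CPM (0.715, 0.664 to 0.771), and the cohesin subunit Rad21 from 429 to 330 CPM (0.770, 0.734 to 0.809). Smchd1, a chromatin protein known to keep clustered protocadherins silent, had 146 and 108 CPM (0.739, 0.680 to 0.804), and the corepressor Trim28 465 and 337 CPM (0.724, 0.690 to 0.759). Setdb1, the histone H3 lysine methyltransferase that shields the locus in neurons, had 112 and 101 CPM (0.906, 0.827 to 0.992). Lrif1, a partner of Smchd1, had the highest ratio of the list, 1.45 (1.22 to 1.72), from 230 and 315 counts. Ctcf, Rad21, Dnmt3b, Smchd1, Trim28, Setdb1 and Lrif1 did not pass the size rule. They were named for their known roles at the locus, and Lrif1 after its value was seen. Neither their part nor that of Dnmt1 in the alpha values was tested.

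Partners and effectors of the proteins had a median log2 ratio near 0 as a list, though single genes differed. Of 26 genes, all tested, 18 had a log2 ratio above 0, beside 47.1% of all genes tested, and the median was 0.07. By the size rule 1 rose and none fell, beside 3.82% and 2.54% of all genes. Ptk2b, which encodes the kinase Pyk2 that clustered protocadherins bind and inhibit, rose from 29 to 70 counts, a ratio of 2.55 (1.63 to 4.07). Its relative Ptk2, which encodes the focal adhesion kinase, had 1184 and 993 counts (0.885, 0.813 to 0.964). Genes of the WAVE actin complex went both ways without passing the size rule. Abi2 had a ratio of 1.36 (1.27 to 1.46) and Abi1 1.17 (1.07 to 1.29), whereas Cyfip2 had 0.786 (0.742 to 0.833) and Wasf2 0.827 (0.741 to 0.924). The intervals of Nckap1, Cyfip1, Brk1, Wasf1 and Wasf3 included 1. Adam10, the protease that sheds the extracellular part, had a ratio of 1.17 (1.09 to 1.25). Ctnnb1 had the lowest ratio of the list, 0.703 (0.683 to 0.724), at 1293 and 910 CPM. Prkca had a ratio of 1.71 (1.54 to 1.91) and Psen2 one of 1.69 (1.27 to 2.25). Ptk2, Adam10 and the genes of the WAVE complex were named for their roles, and Ctnnb1, Prkca and Psen2 after their values were seen.

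The non-clustered protocadherins lie apart from the clusters, most on other chromosomes, and lack the exon choice. Of 12 in a list 11 were listed and tested, and 10 had a log2 ratio above 0, beside 47.1% of all genes tested. None passed the rule, by which 3.82% of all genes rose and 2.54% fell. The median was 0.30, between the alpha median of 0.60 and the beta median of 0.03. Pcdh10 had the most counts, at 489 and 500 CPM, with a ratio of 1.02 (0.981 to 1.07), followed by Pcdh17, at 103 and 134 CPM with 1.30 (1.19 to 1.42). Pcdh1, beyond the gamma cluster on the same chromosome, had 109 and 114 CPM and a ratio of 1.05 (0.958 to 1.14). The highest ratio, named after it was seen, was that of Pcdh7, 1.58 (1.39 to 1.80), from 415 and 622 counts. In the same libraries the median was -0.35 for neural stem cell markers and -1.14 for cell cycle genes.

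**Figure D5:**
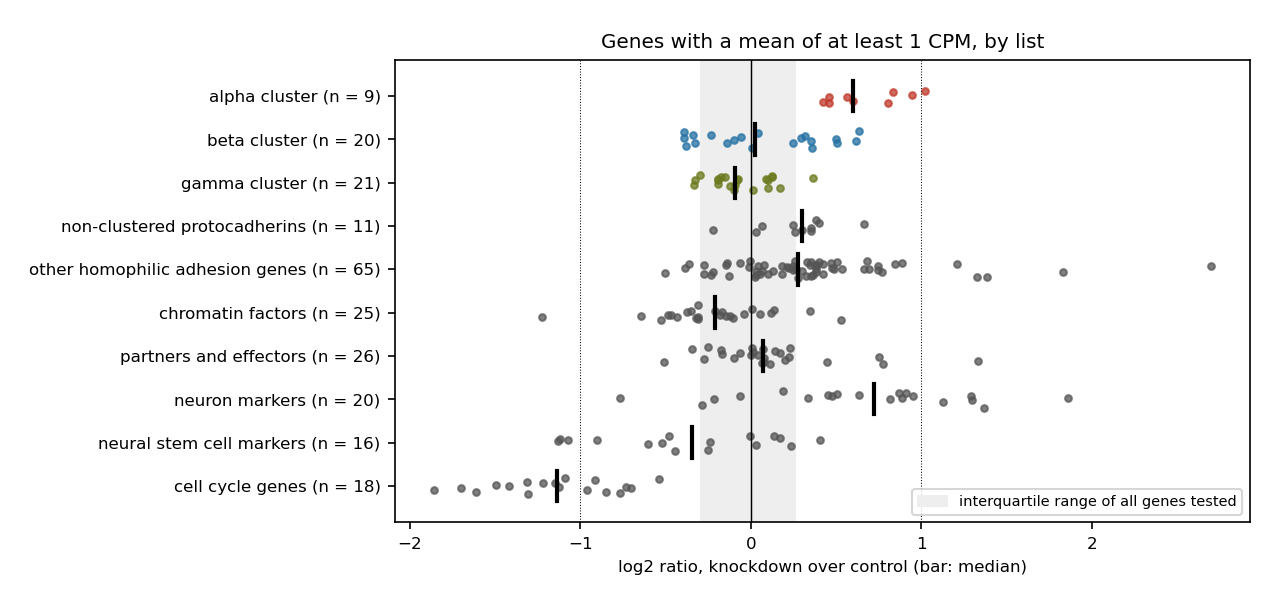
Each point is a tested gene with its log2 ratio, knockdown over control, grouped by cluster or by list, with a black bar at each median and the interquartile range of all genes tested (-0.29 to 0.26) shaded. All alpha points lie to the right of the shaded band, the beta points spread over both sides, and the gamma points lie mostly within it.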

How the data were processed

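Per the labels' protocols, oligo(dT)-enriched RNA from 2 µg of total RNA was fragmented, reverse transcribed with random primers and sequenced. HTSeq 0.6.0, Bowtie 1.0.1 and TopHat2 2.0.12 appear in the submitters' processing notes. Settings, build and strand use were not given in the sources used here. Whole-number counts per gene, not normalized, fill the deposited table, per the file headers. The authors also deposited CPM values, a fold change (the ratio of CPM values), its log2 value, and p-values of a test that is not named; of these only the authors' marking of differential genes was read. Annotated members without a row (Pcdha4, Pcdhb1, Pcdhga10 and another gene ID that also bears the symbol Pcdha11) are not analysed here.

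Counts were divided by the column total. With 1 library per group no test was possible, and genes were described by the size rule and by exact conditional (Clopper-Pearson) intervals at 95%. A member was compared with the rest of its cluster by the conditional odds ratio. Symbols (found for 18423 of 18510 IDs) and unshared exon bases, strand ignored, came from GENCODE vM21 (GRCm38); the deposited positions of all 54 members equal it, and those of 78.1% of all genes. It lists 57 member symbols. The procedure was tested on simulated counts. Python 3.11.15, scipy 1.17.1, edgeR 4.0.16 (TMM) and DESeq2 1.42.0 (size factors) were used. Members and lists were chosen with earlier results of these data known. Named members are those past the rule, the 4 of highest level, the 2 highest and 2 lowest ratios per cluster and the C type isoforms; further genes are named for order or role. Of cell type markers, counts and sums are given.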

Additional observations from a re-analysis of the deposited data

How the results depend on the processing

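With 1 library per group no replicate could be left out, and no paired analysis was possible because there is a single library on each side. The ratios of the 3 cluster sums stayed within their counting intervals under TMM scaling, DESeq2 size factors and without the most abundant or the C type members. The alpha sum without Pcdhac2 and Pcdha5, an alternative chosen after seeing the data, had a log2 ratio of 0.59. A minimum of 10 CPM left 1 alpha gene, with a log2 ratio of 0.83, and moved the beta median to -0.12 (8 genes) and the gamma median to 0.014 (11 genes), which is the other side of 0, by leaving fewer genes tested. The beta median was -0.06 after the length and GC correction, and 9 beta genes were then above 0 instead of 11. The number of members that rose was 0 instead of 1 with the minimum of 10 CPM, with 5 counts added and after the correction. Over all genes, the minimum of 10 CPM left 169 higher and 174 lower, against 535 and 355. All 9 tested alpha genes kept a log2 ratio above 0 under both other scalings, with 5 counts added and after the correction. Depth limits what single isoforms can show, with 35 control counts in the median alpha gene, 61 in the median beta gene and 98 in the median gamma gene.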

Other observations

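The deposited table annotates 77 further genes to homophilic cell adhesion, a term that all 54 clustered protocadherins carry. This set was looked at after values had been seen, and it includes the 11 non-clustered protocadherins described above. It also holds transcripts inside the clusters (BC037039, Gm10545, Gm36858, Gm37446 and Gm26672), of which only BC037039 was tested. Further rows bear only Rik or Gm names, such as 2610005L07Rik and Gm21092, and all tested rows so named had a log2 ratio above 0. Of 65 tested, 52 had a log2 ratio above 0, beside 47.1% of all genes, with a median of 0.27. By the size rule 5 rose and none fell, beside 3.82% and 2.54% of all genes. Of the 5, Cdh23, which forms tip links in hair cells of the ear, had 11 and 28 counts, and the cadherins Cdh18 and Cdh20 had 28 and 62 and 178 and 423. Fat2, a giant atypical cadherin (3 and 21 counts), and the desmosomal cadherin Dsc2 (5 and 18) were under 1 CPM in the control and reached the mean of 1 CPM through the knockdown library, so their part of the count carries no weight. Cdh20 had the narrowest interval of the 5, at a ratio of 2.51 (2.10 to 3.005), and Fat2 the widest, at 7.39 (2.21 to 38.7).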
